A study of Mus musculus with 40 samples.

Results

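The sites described here were promoter positions in mouse liver at which the corepressors NCoR and SMRT and the histone deacetylase HDAC3 were found together. They were chosen by their measured positions: an NCoR peak was taken when a SMRT peak and an HDAC3 peak both had their centre within 200 bp of its own centre, and when that centre lay no more than 1000 bp before or 100 bp after the transcription start site (TSS) of an annotated transcript. The rule selected 716 of the 35138 NCoR peaks, and these are called shared promoter sites. They made up 716 of the 8739 sites shared by the 3 cofactors anywhere in the genome, and 716 of the 4511 NCoR peaks at promoters.

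Chromatin immunoprecipitation followed by sequencing (ChIP-seq), which recovers the DNA bound by a protein with an antibody against it, was performed for each cofactor. The livers came from ad libitum fed C57BL/6 males with a floxed but intact Bcl6 gene (Bcl6 fl/fl, no Cre), labelled wild type, and the sources used here did not state their age. Each peak list stood for 3 libraries that the authors pooled, and held 35138 peaks for NCoR, 10654 for SMRT and 14462 for HDAC3, each as a chromosome, a start and an end. The other 31 of the 40 samples in the series were not analysed here. The samples were labelled liver, and no sorting of cell types was described. The lists carried no value per library and no peak height, and sequencing depth was not given, so the spread between animals is unknown for every value below. A site with NCoR alone and a site at which SMRT and HDAC3 were too weak to be called cannot be told apart. Intervals are exact (Clopper-Pearson) 95% binomial intervals that cover counting only, and neighbouring peaks are not independent.

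NCoR and SMRT are related, large proteins that bind unliganded nuclear receptors and other DNA-bound repressors such as BCL6. Both carry HDAC3, which removes acetyl groups from histones and depends on them for its activity, and TBL1-type proteins are further subunits of the complex. In liver these complexes are known for restraining genes of lipid, glucose and bile acid metabolism that change with feeding and time of day.

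To show what the sites look like, the 200 bp around the NCoR centre are printed for 8 of them, on the plus strand of the GRCm38 (mm10) build. They were picked as the named sites with the most kinds of motif, from different gene lists, and their peak intervals hold no base of an annotated exon. Capitals mark matches to the motifs that were searched, on either strand. At the first 3 sites the matches are of the kinds that mark GC-rich promoters together with those of tissue or signal-dependent factors. By the definition given below, Jund and Gata4 are CpG-rich, while Abcb1a is CpG-poor. Abcb1a encodes a drug and lipid export pump (chr5:8659832-8660031, -145 bp from the TSS), Jund a subunit of AP-1 (chr8:70698716-70698915, -133 bp) and Gata4 a transcription factor of endoderm and heart (chr14:63245326-63245525, -155 bp from a TSS within the gene).
Abcb1a: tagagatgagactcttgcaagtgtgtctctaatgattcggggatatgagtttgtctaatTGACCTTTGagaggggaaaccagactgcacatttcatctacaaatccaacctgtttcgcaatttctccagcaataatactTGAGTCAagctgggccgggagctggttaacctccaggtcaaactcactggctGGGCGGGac
Jund: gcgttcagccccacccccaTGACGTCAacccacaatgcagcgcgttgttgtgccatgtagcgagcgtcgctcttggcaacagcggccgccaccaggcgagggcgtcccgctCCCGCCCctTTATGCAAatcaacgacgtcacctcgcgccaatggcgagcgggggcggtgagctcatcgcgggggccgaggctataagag
Gata4: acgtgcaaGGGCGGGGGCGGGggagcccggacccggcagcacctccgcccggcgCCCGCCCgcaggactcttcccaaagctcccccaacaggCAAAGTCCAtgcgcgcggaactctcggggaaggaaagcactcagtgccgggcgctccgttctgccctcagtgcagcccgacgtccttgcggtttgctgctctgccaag

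The next 3 sites are, like Abcb1a, poor in CpG and hold matches for liver factors. Nr0b2 encodes the nuclear receptor SHP, a repressor of bile acid synthesis (chr4:133552976-133553175, -300 bp from the TSS), Ahsg the plasma protein fetuin-A (chr16:22891819-22892018, -118 bp) and Pparg the lipid receptor PPARγ (chr6:115421709-115421908, -257 bp from an internal TSS).
Nr0b2: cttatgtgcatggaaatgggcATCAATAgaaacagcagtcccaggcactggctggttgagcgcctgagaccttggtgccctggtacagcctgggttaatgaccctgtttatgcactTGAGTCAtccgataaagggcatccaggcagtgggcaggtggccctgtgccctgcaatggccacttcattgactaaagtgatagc
Ahsg: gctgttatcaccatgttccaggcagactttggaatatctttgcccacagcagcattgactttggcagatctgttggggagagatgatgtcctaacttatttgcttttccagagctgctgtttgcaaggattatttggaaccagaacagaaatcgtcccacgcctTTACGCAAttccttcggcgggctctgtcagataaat
Pparg: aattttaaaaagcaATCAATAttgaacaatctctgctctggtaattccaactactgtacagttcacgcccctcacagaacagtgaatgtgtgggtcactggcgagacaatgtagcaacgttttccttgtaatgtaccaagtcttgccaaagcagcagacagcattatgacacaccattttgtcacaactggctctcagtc

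The last 2 sites show how little some members hold. Gpt, which encodes alanine aminotransferase (chr15:76696028-76696227, -605 bp from a TSS), has 1 match to the NF-Y letters, and Igfbp1, which encodes an insulin-responsive IGF-binding protein (chr11:7197517-7197716, -165 bp), has none, like 277 of the 716 sites.
Gpt: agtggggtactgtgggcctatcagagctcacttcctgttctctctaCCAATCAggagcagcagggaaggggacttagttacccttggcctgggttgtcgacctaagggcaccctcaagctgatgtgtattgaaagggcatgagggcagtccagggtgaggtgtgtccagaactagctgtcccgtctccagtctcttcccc
Igfbp1: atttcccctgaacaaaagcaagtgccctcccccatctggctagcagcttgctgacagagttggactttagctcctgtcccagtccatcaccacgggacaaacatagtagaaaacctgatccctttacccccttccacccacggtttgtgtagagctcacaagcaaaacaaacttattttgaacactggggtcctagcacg

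The distances that the rule used are given as a description, with no test. The median distance from the NCoR centre was 24 bp for SMRT and 23 bp for HDAC3, and 90% of sites lay within 65 bp and 64 bp. At 509 of the 716 sites both partners were within 50 bp. At the Abcg5 promoter both partner centres were 3 bp away, and at the Jund promoter SMRT was 103 bp and HDAC3 32 bp away. The limit of 200 bp decided few members. The largest distance in a member was 174 bp, 33 members had a partner over 100 bp away, and 4 promoter positions fell just outside, all through SMRT: Crp at 204 bp, Gm48633 at 209 bp, Kcnmb3 at 210 bp and Aptx at 216 bp. The promoter limits were also thinly populated. Members just inside included Fam92a at 97 bp and Kctd15 at 95 bp downstream of the TSS, while Dennd5b at 102 bp was outside. Upstream, Acot1 at -985 bp was inside and Fam107b at -1010 bp was outside.

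Nearly all members stood alone at their gene. The 716 sites belonged to 700 genes, and 16 genes had 2 sites, with none having 3 or more. No member lay within 400 bp of another, so the intervals of a pair did not overlap. Whether a pair marks separate binding positions was not tested. By symbol, the first of these genes included Acsl1, Cish, Cyp3a13, Fam50b, Gata4, Gm11618, Gm30931, Gm34921 and Mgst1. Cish, a feedback inhibitor of growth hormone signalling, had sites 602 bp apart, at 81 bp downstream of a TSS and at -1 bp from another. The sites of Acsl1, which activates long-chain fatty acids, were 20684 bp apart and served separate start sites, and those of Gata4 were 708 bp apart. Pparg (662 bp apart) and Tbl1xr1, a subunit of the corepressor complex itself (623 bp apart), were also among the 16.

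A protein-coding TSS was in the window of 507 of the 716 sites (70.8%, 67.3 to 74.1), compared with 84.2% (82.8 to 85.5) of 2976 NCoR-only promoter sites, which are NCoR peaks in the same window with neither partner in reach. By two-sided Fisher's exact test, as for all comparisons of classes below, the odds ratio was 0.456 (p = 3.66e-15, adjusted over 6 comparisons). Of the remaining members, 153 were at long noncoding RNA starts only, 34 at pseudogenes, 11 at microRNA genes and 11 at other kinds. Among the 507, the TSS was within 100 bp of the gene start at 332 and over 1000 bp inside the gene at 121, as at Por, Gata4 and Pparg. The gene's own TSS nearest to the site was also internal at Pcx, Ldha, Eci2, Psma6, Igfals, Rarg, Abcg8, Egr1 and Gpt. Distances in the gene lists below are from that TSS. The X chromosome held 5 members, of 716, and 57 of the 2976 NCoR-only promoter sites.

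Next, the position of the sites within the promoter was examined. Shared promoter sites had a median position of -135.5 bp from the nearest TSS (interquartile range -408.75 to -57), and NCoR-only promoter sites -106.5 bp (-313 to -9). The 132 promoter sites with NCoR and SMRT but not HDAC3 were like the shared sites, at -138.5 bp (-479.25 to -51). The 687 with NCoR and HDAC3 but not SMRT had a median of -120 bp (-358 to -19.5). The bin from -200 to -100 bp held 23.6% of shared and 17.9% of NCoR-only sites, while the first 100 bp downstream of the TSS held 12.3% and 21.9%. Since the rule used the distance from the TSS, these values are a description with no test. A centre at or downstream of -200 bp was found at 61.0% (57.4 to 64.6) of shared sites and 66.5% (64.8 to 68.2) of NCoR-only sites, an odds ratio of 0.789. The direction was not the same within groups of like sequence. Among CpG-poor sites, defined below, it turned, with 56.0% of shared and 47.8% of NCoR-only sites in that region (odds ratio 1.39). Among CpG-rich sites the shares were 75.8% and 79.8% (odds ratio 0.795).

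**Figure D1:**
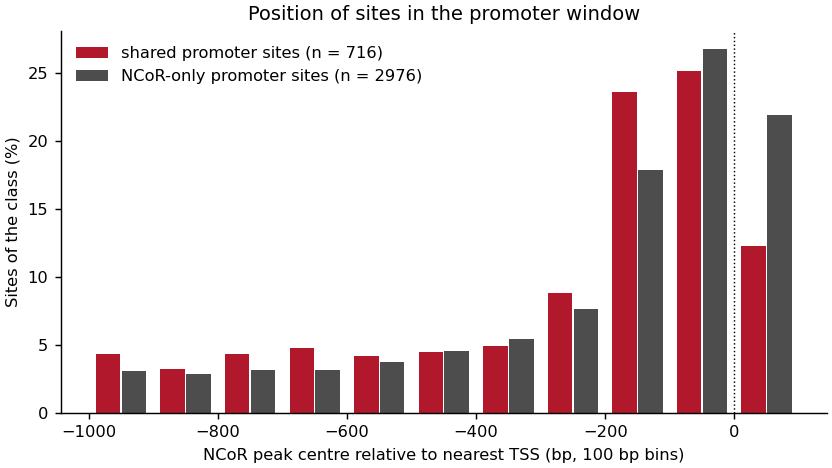
Share of sites in each class (%) in 100 bp bins of the NCoR centre's distance from the nearest TSS, for 716 shared and 2976 NCoR-only promoter sites. Shared sites are more frequent from -200 to -100 bp (23.6% against 17.9%) and less frequent in the first 100 bp downstream (12.3% against 21.9%).

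Most shared promoters were poor in CpG, the dinucleotide that is concentrated in the promoters of broadly active genes. Sites were called CpG-rich when 500 bp around the NCoR centre had a GC content of at least 50% and at least 0.6 times the CpG expected from its base composition. Of the shared promoter sites 182 (25.4%, 22.3 to 28.8) were CpG-rich, compared with 1740 (58.5%, 56.7 to 60.2) of the NCoR-only promoter sites (odds ratio 0.242, adjusted p = 5.88e-58). Promoter sites with NCoR and HDAC3 but not SMRT stood between these values (346 of 687, 50.4%), and those with NCoR and SMRT but not HDAC3 were close to the shared sites (39 of 132, 29.5%, 21.9 to 38.1). The 8023 shared sites outside promoters, called distal, were CpG-rich in 1.097% (0.881 to 1.35), and the odds ratio for promoter over distal was 30.7. The rule split these classes by distance from a TSS, and CpG is concentrated at promoters. The comparison with distal sites is therefore a description with no test. The median CpG ratio was 0.311 at shared promoter sites, 0.699 at NCoR-only promoter sites and 0.197 at shared distal sites.

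**Figure D2:**
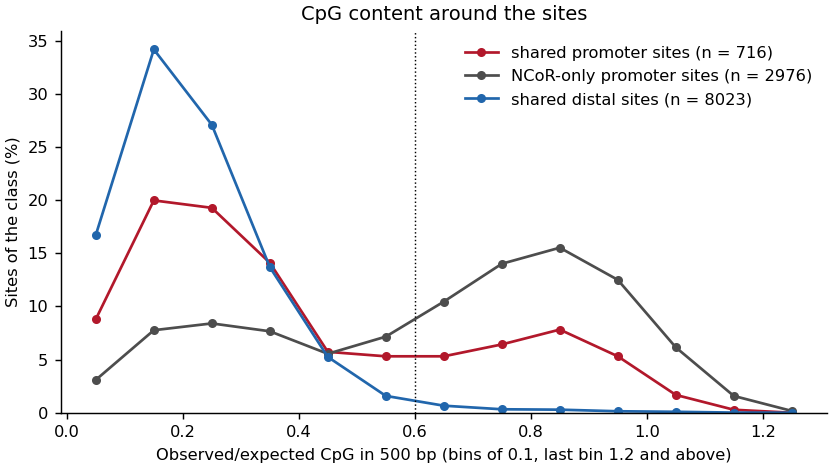
Share of sites in each class (%) by observed/expected CpG in 500 bp around the NCoR centre, for shared promoter, NCoR-only promoter and shared distal sites. The dotted line marks 0.6, and the medians are 0.311, 0.699 and 0.197.

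Named genes were found in both groups. CpG-poor members included the glucose transporter gene Slc2a2 (ratio 0.14), the glucose-6-phosphatase gene G6pc (0.20), Cyp7a1, the rate-limiting enzyme of bile acid synthesis (0.18), and the haptoglobin gene Hp (0.22). CpG-rich members included Nr4a2, an orphan nuclear receptor induced by signals (0.98), Jund (0.87), Socs2, an inhibitor of growth hormone signalling (0.84), and Gadd45g, a stress-response gene (0.84). Promoters with start sites on both strands within 1000 bp (divergent promoters) were less frequent among shared sites, at 12.8% (10.5 to 15.5) against 22.3% (20.8 to 23.9), an odds ratio of 0.513 (adjusted p = 5.89e-09). Among CpG-rich sites no difference was detected (30.8% and 29.5%, odds ratio 1.06, p = 0.733, adjusted by the exact test over 8 comparisons), while among CpG-poor sites the shares were 6.74% and 12.1% (odds ratio 0.523, adjusted p = 0.00138). The lower share of protein-coding starts was likewise past the threshold among CpG-poor sites (63.5% and 70.3%, odds ratio 0.734, adjusted p = 0.00862) and not among CpG-rich ones (92.3% and 94.0%, adjusted p = 0.380).

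To ask whether shared promoter sites stood near other shared sites, positions over 400 bp and at most 10 kb away were counted. Such a neighbour was present at 257 shared promoter sites (35.9%, 32.4 to 39.5) and 516 NCoR-only promoter sites (17.3%, 15.99 to 18.7), an odds ratio of 2.67. It was 2.62 among CpG-rich sites and 2.11 among CpG-poor sites. The neighbours come from the same 3 lists that chose the members, and the local density of peaks enters both, so these values are a description with no test. Promoter sites with NCoR and SMRT but not HDAC3 were close to the shared sites, with a shared neighbour at 44 of 132 (33.3%, 25.4 to 42.1). Those with NCoR and HDAC3 but not SMRT had one at 153 of 687 (22.3%, 19.2 to 25.6). Shared distal sites had a shared neighbour in 36.0% (34.9 to 37.0) of cases. Within 50 kb, the most other shared sites were counted at Tsku, which encodes a secreted proteoglycan, and the noncoding Gm30931 (9 sites each), then at Por, the electron donor of microsomal cytochromes P450, and the noncoding AC138228.2 (8 each). With 7 each, AC117700.1, Bhmt2, a homocysteine methyltransferase gene, and Prlr, the prolactin receptor gene, were level. The median was 1 at shared and at NCoR-only promoter sites. Of the shared promoters 459 had no other shared site within 10 kb, among them Bdh1, G6pc and Gapdh.

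The genes that carried shared promoter sites were then described by lists of liver functions. A shared site was present in a promoter of 513 of 21938 protein-coding genes, or 2.34%, and an NCoR-only site without a shared one in 11.8%. No set test was run on the lists, and the lists hold many genes that are active in liver, for which transcription was not measured here. The plot of promoter sites by gene list shows a range of shared sites from 0% to 50% of a list, beside these backgrounds.

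**Figure D3:**
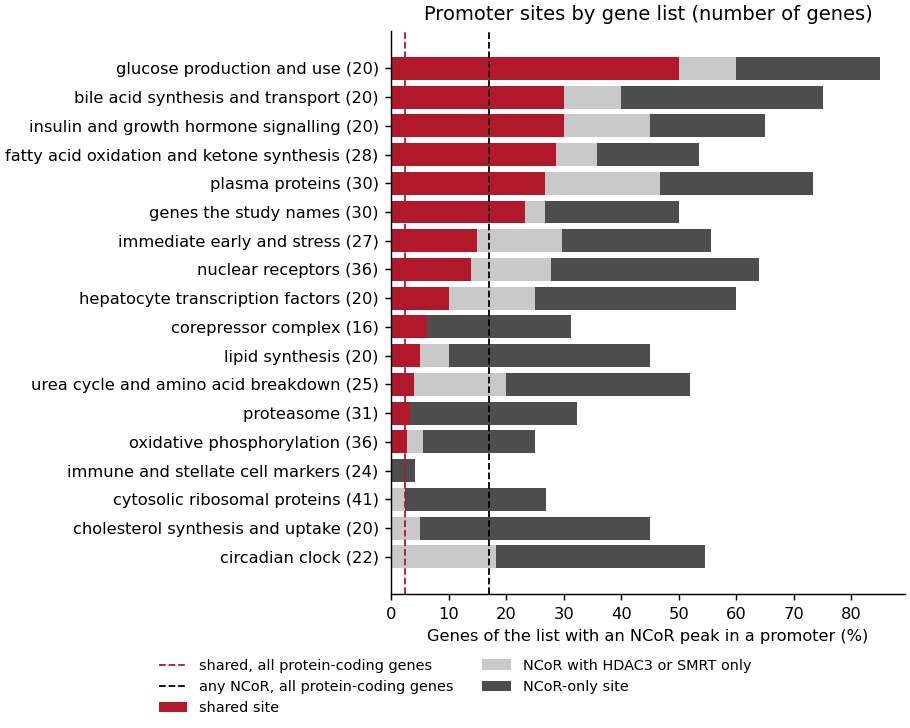
Genes of each list (%, number of genes in brackets) with an NCoR peak in a promoter, split by the cofactors found there. Dashed lines mark all protein-coding genes, at 2.34% with a shared site and 16.9% with any NCoR peak, and shared sites reach 50% in the glucose list and 0% in the clock list.

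Genes of glucose production and use had the highest share, with a shared promoter site at 10 of 20 (50%) and an NCoR-only site at a further 5. Those with sites nearest to the TSS included Gapdh, a glycolytic enzyme (-4 bp), Slc2a2 (-27 bp), Fbp1, a gluconeogenic phosphatase (-45 bp), Gys2, the liver glycogen synthase (50 bp downstream), and G6pc (65 bp downstream). A further 4, named after their values were seen, were Pcx (-101 bp), Pdk4 (-208 bp), Pck1 (-254 bp) and Ldha (-411 bp). For Pcx and Ldha the TSS was internal, 83874 bp and 4364 bp from the gene start. Enzymes of gluconeogenesis (G6pc, Fbp1, Pck1, Pcx) were thus among them, beside Gapdh and Ldha. At all 10 genes the site nearest to the TSS was CpG-poor by the definition above, with ratios from 0.14 at Slc2a2 to 0.57 at Gapdh. The G6pc site (chr11:101367512-101367740) held matches to TATA, HNF6/CUX2 and D-box letters, and the Gys2 site (chr6:142472945-142473173) held a DR1 element, the response element of PPAR/RXR and HNF4.

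Fatty acid oxidation and ketone synthesis had shared sites at 8 of 28 genes (28.6%) and NCoR-only sites at 5. They included Bdh1 (-73 bp), which makes the ketone body β-hydroxybutyrate. The auxiliary enzymes of unsaturated fatty acid oxidation were present with Decr1 (93 bp downstream), Eci2 (-98 bp) and Eci1 (-113 bp), beside the mitochondrial carnitine carrier Slc25a20 (68 bp downstream) and the thiolase Acaa2 (-119 bp). The site of Bdh1 was at chr16:31422093-31422321 and held no motif match. Of 30 genes that the study names, many of them fatty acid genes chosen on related libraries and therefore no independent evidence, 7 had a shared promoter site (23.3%), including Bdh1, Abcd2, a peroxisomal fatty acid transporter (-125 bp), Pparg (-257 bp), the acyl-CoA thioesterase Acot3 (-304 bp), Por (-318 bp) and Acot1. Acot1 and Acot3 belong to a cluster of similar genes, where only uniquely mapped reads were counted. Bcl6 itself had no NCoR peak in its promoter window.

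Lipid synthesis had 1 of 20 genes, the fatty acid elongase Elovl6 (-158 bp), and cholesterol synthesis and uptake had 0 of 20, and NCoR-only sites were present at 7 and 8 of these genes. Both counts of shared sites are near the 2.34% of all genes for lists of this length. Whether these lists differ from the oxidation list was not tested.

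Bile acid synthesis and transport had shared sites at 6 of 20 genes (30%). They covered the synthetic enzymes Cyp8b1 (-98 bp) and Cyp7a1 (-162 bp), the bile salt export pump Abcb11 (-115 bp) and the pump Abcb1a (-145 bp). The sterol exporters Abcg5 (-23 bp) and Abcg8 (-87 bp), which work as a pair and lie head to head, had a single site between them at chr17:84682920-84683148. All of these were CpG-poor, and the Cyp7a1 site (chr4:6275679-6275907) held a BCL6/STAT match. Plasma proteins had 8 of 30 genes (26.7%), with the heme carrier Hpx (-31 bp), transferrin Trf (-38 bp), Hp (-64 bp), the apolipoproteins Apoa2 (-86 bp) and Apoa5 (-176 bp) and Ahsg (-118 bp).

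Insulin and growth hormone signalling had 6 of 20 genes (30%). Cish (-1 bp), Socs2 (-50 bp) and Igfals, the carrier of circulating IGF (-44 bp), each had a BCL6/STAT match at the shared site, and each is known as a target of growth hormone and STAT5. Stat5a itself had a site 83 bp downstream of a TSS with no match. The pseudokinase gene Trib1 (-120 bp) and Igfbp1 (-165 bp) completed the group. Nuclear receptors had 5 of 36 genes (13.9%), and NCoR-only sites were found at 13. The 5 were Nr4a2 (-231 bp), Pparg, Nr0b2 (-300 bp), the retinoic acid receptor gene Rarg (-661 bp) and Nr1i3, which encodes the xenobiotic receptor CAR (-925 bp).

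Immediate early and stress genes had 4 of 27 (14.8%), namely Gadd45a (-58 bp), Jund (-133 bp), Gadd45g (-139 bp) and Egr1 (-803 bp). Hepatocyte transcription factors had 2 of 20, the pioneer factor gene Foxa2 (-133 bp) and Gata4, and the corepressor complex had 1 of 16, Tbl1xr1 (66 bp downstream).

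The circadian clock list had shared promoter sites at 0 of 22 genes, beside 2.34% of all genes, a share at which a list of this length can hold none. NCoR-only sites were present at 8 of the 22 (36.4%, beside 11.8% of all genes), including Per1, Per3 and Nr1d1. The last encodes the heme receptor REV-ERBα that recruits NCoR. Another 4, including Arntl, Rora and Csnk1d, had NCoR with HDAC3 but not SMRT, a class whose share of all genes was not counted. Of 21938 protein-coding genes, 3713 had any NCoR peak, 513 a shared site and 2587 an NCoR-only site without a shared one. Only the remainder can hold that class without either of the other kinds of site. Any NCoR peak was present at 12 of the 22 (54.5%), beside 16.9% of all protein-coding genes and 53.6% of the fatty acid oxidation list. These clock genes were named after their status was seen. A shared distal site lay within 50 kb of the gene start of 14 of the 22 clock genes (63.6%), beside 29.8% of all protein-coding genes. Other lists of liver function had like or higher shares, such as lipid synthesis (70%), nuclear receptors (63.9%), cholesterol synthesis and uptake (60%) and insulin and growth hormone signalling (90%).

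For shared sites, lists of broadly active genes were near the background. Cytosolic ribosomal proteins had 0 of 41 genes, oxidative phosphorylation 1 of 36 (Cycs, -317 bp) and the proteasome 1 of 31 (Psma6, -72 bp), while NCoR-only sites were present at 10, 7 and 9 of these (24.4%, 19.4% and 29.0%, beside 11.8% of all genes). Urea cycle and amino acid breakdown, a hepatocyte function, had only Gpt, 1 of 25 genes (4%), with NCoR-only sites at 8. The list of immune and stellate cell markers, other cell types of the liver, also held endothelial and bile duct genes such as Pecam1 and Krt19. Shared sites were at 0 of its 24 genes, a count that a share of 2.34% can also give. Any NCoR peak was present at 1 of the 24 (4.17%), an NCoR-only site at the duct gene Sox9. The shares were 73.3% of plasma protein genes made by hepatocytes (22 of 30) and 16.9% of all protein-coding genes. Whether these lists differ was not tested.

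**Figure D4:**
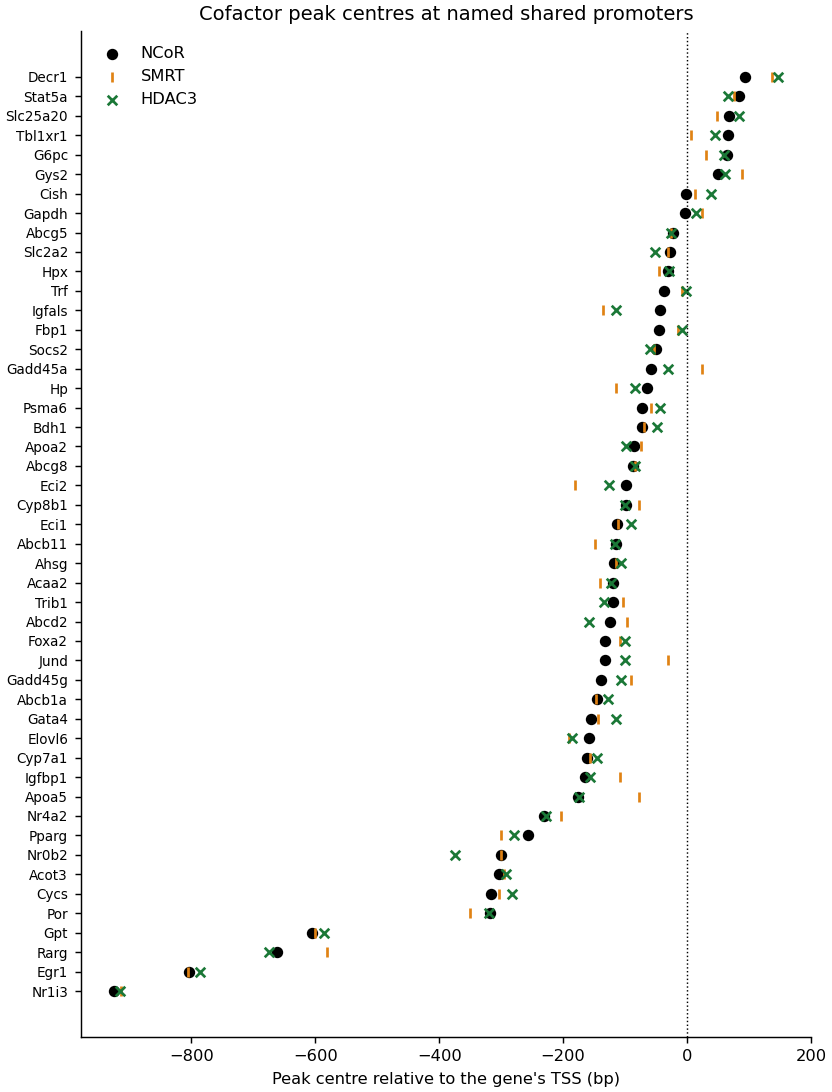
Peak centres of NCoR, SMRT and HDAC3 in bp from the gene's own TSS (dotted line) at the shared promoter sites nearest to the TSS of genes named by list, ordered by the NCoR position. Most lie between -200 and 100 bp, from Decr1 (93 bp downstream) to Nr1i3 (-925 bp).

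Shared sites outside the promoters were counted around the same genes. A shared distal site lay within 50 kb of the gene start at 348 of 513 such genes (67.8%, 63.6 to 71.9), at 1149 of 2587 genes with an NCoR-only promoter site (44.4%, 42.5 to 46.4) and at 4711 of 18225 genes with no NCoR peak in a promoter (25.8%, 25.2 to 26.5). Genes in the same region can share a distal site, and these shares are given as a description.

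Finally, short consensus motifs were searched on both strands in 200 bp around the NCoR centre, and their frequency was compared with NCoR-only promoter sites and shared distal sites with p adjusted over 40 tests. The letters searched were CCGGAAGT for ETS, GGGCGGG for SP/KLF, CGCATGCG for NRF1, AAGATGGC for YY1, CCAATCA for NF-Y, TATAAA for TATA, TGACGTCA for CRE and CACGTG for the E-box. Those of more tissue-restricted or signal-dependent factors were TGANTCA for AP-1, TTCNNNGAA for BCL6/STAT, CAAAGTCCA or CAAAGGTCA for the HNF4 half-site, TCAAGGTCA for ERR, ANTAGGTCA for REV-ERB/ROR, TGTTTAC for FOX, TATNGAT for HNF6/CUX2, GTTAATNAT for HNF1, TTANGTAA for the D-box, and TTGCGCAA, TTACGCAA, TTGTGCAA or TTATGCAA for C/EBP. DR1 and CTCF were searched with longer consensus strings. The DR1 string ends in a relaxed HNF4 half-site, the second half-site form shares its last letters with ERR and REV-ERB/ROR, and the SP/KLF, ETS, NRF1, CRE and E-box letters contain CpG, as do 2 of the 4 C/EBP strings, and so depend on CpG content. A match is a description of letters and does not show that the factor was bound.

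Relative to NCoR-only promoters, 8 of 20 motifs were more frequent at shared promoters and 3 were less frequent. Of the 8, C/EBP, a family of hepatocyte and adipocyte factors, had the largest odds ratio, with matches at 61 of 716 shared sites (8.52%, 6.58 to 10.8) and 61 of 2976 NCoR-only sites (2.05%, 1.57 to 2.63), an odds ratio of 4.45 (adjusted p = 1.31e-13). Among all protein-coding promoters, taken as the 200 bp upstream of the gene start, 1.55% held a match. Hp, Ahsg, Jund, Gadd45a and Trib1 were members with one. HNF6/CUX2 matches were present at 7.54% (5.72 to 9.73) and 2.72% (2.17 to 3.37), an odds ratio of 2.92 (adjusted p = 2.12e-07), with 3.37% of all promoters, and the members included Slc2a2, G6pc, Foxa2, Nr0b2 and Pparg. FOX matches were present at 8.24% (6.33 to 10.5) and 3.56% (2.93 to 4.29), an odds ratio of 2.43 (adjusted p = 3.93e-06), with 2.05% of all promoters, and the members included Apoa2, Trib1, Elovl6 and Prlr.

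Differences with larger adjusted p were seen for the HNF4 half-site (4.89% and 2.25%, odds ratio 2.23, adjusted p = 0.00124, 0.520% of all promoters), found at Cyp8b1, Abcb1a and Gata4, and for REV-ERB/ROR (1.96% and 0.672%, odds ratio 2.95, adjusted p = 0.0104, 0.442% of all promoters). TATA matches were at 7.68% and 4.64% (odds ratio 1.71, adjusted p = 0.00634, 9.29% of all promoters). The D-box (odds ratio 1.81, adjusted p = 0.0473, 1.51% of all promoters) and AP-1 (odds ratio 1.52, adjusted p = 0.0475, 4.81%) were close to the threshold. None of these 5 passed in 100 bp windows, which hold fewer matches, where the odds ratios were 1.49 for the HNF4 half-site, 2.09 for REV-ERB/ROR, 1.73 for TATA, 2.02 for the D-box and 1.47 for AP-1. With 1 site per gene, AP-1 did not pass (odds ratio 1.496, adjusted p = 0.0564). Within the CpG-poor sites alone, C/EBP (odds ratio 3.16), HNF6/CUX2 (1.79) and FOX (1.73) passed and the other 5 did not, with odds ratios from 1.06 for AP-1 to 1.75 for REV-ERB/ROR. The CpG-rich group held only 182 shared sites, and of the 8 motifs C/EBP passed there (odds ratio 4.76, adjusted p = 0.0137). The others had odds ratios above 1 in that group, at 4.53 for the HNF4 half-site, 4.82 for REV-ERB/ROR, 3.25 for HNF6/CUX2, 2.24 for FOX, 1.96 for TATA, 1.81 for the D-box and 1.73 for AP-1, and did not pass. Any of the HNF4 half-site, FOX, HNF6/CUX2, HNF1 or C/EBP letters was present at 26.96% (23.7 to 30.4) of shared promoter sites, 10.8% (9.73 to 11.99) of NCoR-only promoter sites and 32.7% (31.7 to 33.8) of shared distal sites.

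SP/KLF, a motif of CpG-rich promoters, was less frequent at shared than at NCoR-only promoters (15.5%, 12.9 to 18.4, against 31.3%, 29.6 to 32.9), with an odds ratio of 0.404 (adjusted p = 3.69e-17), and 27.2% of all promoters held it. Within CpG-rich sites the shares were 46.7% and 46.3%, and within CpG-poor sites 4.87% and 10.03% (odds ratio 0.459, adjusted p = 0.00349). ETS matches were at 1.40% and 4.74% (odds ratio 0.285, adjusted p = 6.94e-05, 3.04% of all promoters) and CRE matches at 0.838% and 2.25% (odds ratio 0.367, adjusted p = 0.0274, 1.86% of all promoters), and neither passed within the CpG-poor or the CpG-rich sites alone. BCL6/STAT matches were at 46 shared sites (6.42%, 4.74 to 8.48) and 4.94% (4.19 to 5.78) of NCoR-only sites, which was not past the threshold (odds ratio 1.32, adjusted p = 0.163), with 5.80% of all promoters. DR1 was present at 10 shared promoters (1.40%), including Gys2, and 0.571% of NCoR-only promoters (odds ratio 2.47, adjusted p = 0.0522). The remaining motifs (NRF1, YY1, NF-Y, E-box, HNF1, ERR and CTCF) did not pass, with adjusted p from 0.0555 to 0.169, and were present in 2.08%, 1.19%, 7.96%, 5.65%, 0.574%, 0.360% and 0.939% of all promoters, beside 0.169% for DR1.

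**Figure D5:**
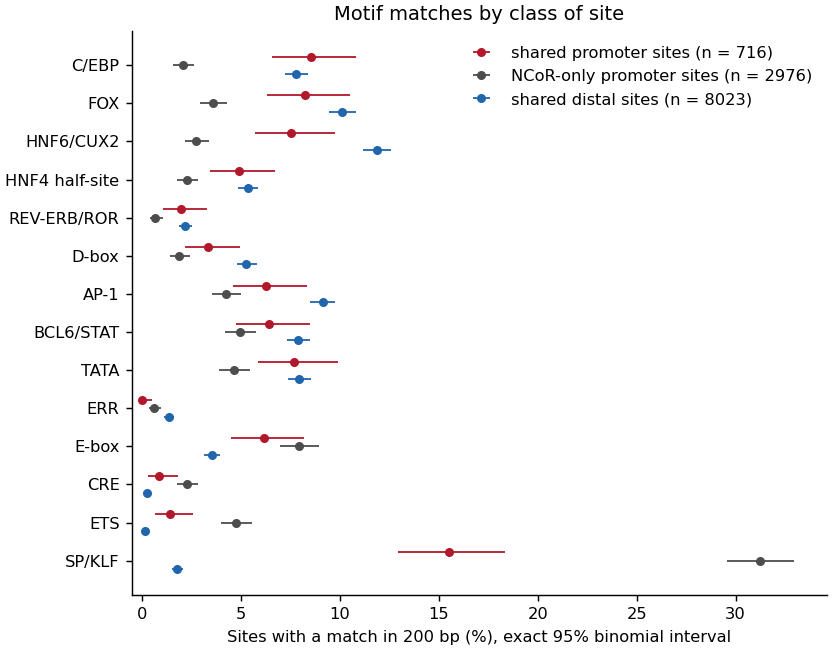
Share of sites (%) with a match in 200 bp around the NCoR centre for 14 of the 20 motifs, with exact 95% binomial intervals, in the 3 classes of site. For C/EBP the shared promoter sites (8.52%) lie near the shared distal sites (7.78%) and above the NCoR-only promoter sites (2.05%), while SP/KLF is at 15.5%, 1.77% and 31.3%.

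Against shared distal sites, 5 motifs were more frequent at shared promoters and 3 were less frequent. The letters of those 5 contain CpG, and the classes were split by distance from a TSS. Their tests therefore cannot tell promoter sequence from a trait of the cofactors. SP/KLF was at 15.5% and 1.77% (odds ratio 10.2, adjusted p = 8.90e-54), ETS at 1.40% and 0.137% (odds ratio 10.3, adjusted p = 1.31e-05), NRF1 at 3 of 716 and 3 of 8023 sites (odds ratio 11.2, adjusted p = 0.0244), CRE at 0.838% and 0.262% (odds ratio 3.22, adjusted p = 0.0465) and the E-box at 6.15% and 3.51% (odds ratio 1.80, adjusted p = 0.00327). ERR, the element of the estrogen-related receptors, was found at 0 of 716 shared promoter sites (upper bound 0.514%) and 109 of 8023 shared distal sites (1.36%, 1.12 to 1.64, adjusted p = 0.000717). HNF6/CUX2 was less frequent at promoters (7.54% and 11.9%, odds ratio 0.605, adjusted p = 0.00124), as was AP-1 (6.28% and 9.12%, odds ratio 0.668, adjusted p = 0.0244). Among CpG-poor sites alone neither passed (odds ratios 0.742 and 0.734, adjusted p = 0.180 and 0.265), nor did ETS (odds ratio 4.07, adjusted p = 0.180), NRF1 (odds ratio 9.94, adjusted p = 0.155) or CRE, while SP/KLF, the E-box and ERR did. C/EBP (8.52% and 7.78%, odds ratio 1.104, adjusted p = 0.551), FOX (8.24% and 10.1%, adjusted p = 0.163) and the HNF4 half-site (4.89% and 5.35%, adjusted p = 0.759) were not past the threshold.

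The place of the matches was counted by motif in the shared promoter windows only, with no test between motifs. Of 64 C/EBP matches 44 (68.8%, 55.9 to 79.8) had their middle within 50 bp of the NCoR centre, as had 37 of 58 HNF6/CUX2 matches (63.8%, 50.1 to 76.0), 37 of 60 FOX matches (61.7%, 48.2 to 73.9) and 10 of 13 HNF1 matches (76.9%, 46.2 to 94.96). For SP/KLF the share was 73 of 162 (45.1%, 37.2 to 53.1) and for the HNF4 half-site 16 of 35 (45.7%, 28.8 to 63.4). About 50% would lie there if matches were spread evenly over the window.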

How the data were processed

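ChIP-seq peak lists for NCoR, SMRT and HDAC3 in fed Bcl6 fl/fl livers were analysed. According to the study's methods and the labels, the authors aligned reads to mm10 with Bowtie, kept unique reads, called peaks with HOMER on 3 pooled libraries against input, and filtered them with DESeq2. The deposited lists hold chromosome, start and end only, so no count test was possible. Interval lengths were 228 bp (NCoR) and 212 bp (SMRT, HDAC3). The sources used here did not give depth.

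TSSs came from the GENCODE M21 basic annotation of GRCm38.p6. All peaks lay inside its chromosome lengths. Coordinates are as the lists give them. Distances are between peak centres, and negative distances are upstream. Sequences were read from the RefSeq GRCm38.p6 genome. Classes were compared with Fisher's exact test (two-sided, scipy 1.17.1) and Benjamini-Hochberg adjustment over 6 main comparisons, 40 motif tests and 8 comparisons within CpG groups, at a threshold of 0.05. Position, nearby sites and CpG content against distal sites stay in these families and are given as descriptions. The class and motif steps were tested on simulated data. Other tools were Python 3.11.15, numpy 2.4.6, pysam 0.24.0 and matplotlib 3.10.9.

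The members, the 18 gene lists and the 20 motifs were chosen with earlier results of these data known. Named genes were, per list, all with a shared promoter site where at most 6, otherwise the 6 nearest to their TSS, then up to 10 genes with 2 sites, the 5 with the most shared neighbours within 50 kb (with ties), and Bcl6. Some genes selected by this rule are not reported here. Alternatives covered the centre distance, promoter limits, annotation, CpG definition, neighbour distance, divergent distance, motif window, repeats, CpG group and 1 site per gene.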

Additional observations from a re-analysis of the deposited data

How the results depend on the processing

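The lists carry no heights, replicates or depths, which leaves peak strength and variation between animals unknown. No paired analysis was possible because the lists give no value per replicate, and for the same reason none was left out. The comprehensive annotation, core promoter sites alone, and the CpG groups of the main comparisons were alternatives chosen after seeing the data.

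The number of shared promoter sites ran from 507 (protein-coding starts only) to 962 (comprehensive annotation). CpG content changed neither direction nor call under any alternative run on it, and the odds ratio for nearby shared sites ran from 2.11 to 2.99. Among CpG-rich sites, the odds ratio for position was 0.795, for protein-coding starts 0.763, not past the threshold, and that for divergent promoters turned to 1.06. Among CpG-poor sites that for position turned to 1.39.

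Motifs more frequent than at NCoR-only promoters numbered 8, and 4 in 100 bp windows, 10 without repeats, 3 in CpG-poor and 1 in CpG-rich sites. The 4 in 100 bp windows were C/EBP, FOX, HNF6/CUX2 and a motif that was not past the threshold in 200 bp. Motifs less frequent than at NCoR-only promoters numbered 3, and 5 without repeats, 1 in CpG-poor and 0 in CpG-rich sites. Against distal sites the 5 more frequent became 2 (100 bp windows), 3 (without repeats), 2 (CpG-poor), 0 (CpG-rich) and 3 (core promoters). The 3 less frequent became 2 (100 bp windows), 2 (without repeats), 1 (CpG-poor) and 0 (CpG-rich). Odds ratios turned for SP/KLF against NCoR-only promoters (1.02, CpG-rich) and, against distal sites, for CRE (0.782, CpG-poor), AP-1 (4, CpG-rich) and HNF6/CUX2 (1.21, CpG-rich). None of these 4 was past the threshold. The CpG groups hold fewer sites, and the cause was not tested. With a promoter of 500 bp, the nuclear receptor list fell to 3 genes and the urea cycle list to 0.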
